A study of Mus musculus with 2 samples.

Results

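The 10 genes Mt1, Mt2, Hmox1, Blvrb, Slc40a1, Fth1, Ftl1, Tfrc, Slc11a1 and Selenop encode metallothioneins and proteins of heme breakdown, iron handling and selenium transport, and were followed through the immune cells of a mouse glioma. They were taken by symbol from the 31053 genes of the count matrices. The cells came from C57BL/6 mice of 8 to 12 weeks that received 100000 cells of GL261, a mouse glioma line, in the brain. WT mice were CD169-DTR wild type and carried no diphtheria toxin receptor. CD169-DTR mice were heterozygous for the receptor, which is driven by the locus of Siglec1, the gene of CD169, a sialic acid receptor of macrophages. Mice of both groups were given 40 ng/g diphtheria toxin (DT) on days -1 and 4 of the tumor, so both groups had the toxin and CD169-DTR mice alone had the receptor. At 10 dpi, live CD45.2+ cells from 3 mice of each group were pooled, sorted and read with a 3′ droplet kit (scRNAseq), which gave 1 library for each group and no replicate.

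Metallothioneins are small cysteine-rich proteins that bind zinc and copper, and their genes are switched on by metal, glucocorticoids and stress. Hmox1 opens the heme ring and frees its iron, Blvrb reduces biliverdins, ferritin stores iron, Slc40a1 (ferroportin) exports it and Tfrc takes it up bound to transferrin. Macrophages that clear red blood cells and debris are known for handling much of the iron of the body, while microglia are the resident macrophages of the brain.

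Mt1 and Mt2 lie next to each other on the plus strand of chromosome 8, with 5513 bases between the genes (Mt1 at 94179082 to 94180327, Mt2 at 94172664 to 94173568, GENCODE M21 on GRCm38). Their promoters are shown because both genes were lower in WT macrophages, microglia and dendritic cells (DCs). The 250 bases before the RefSeq start of each gene are given 5′ to 3′ on build GRCm38.p6, followed by the first 30 bases from that start. The RefSeq start is 94179089 for Mt1 and 94172618 for Mt2, and the GENCODE starts are 94179082 and 94172664. The 30 Mt2 bases thus lie before the GENCODE gene. Capitals mark matches to the core of the metal response element, searched as TGCACNC or TGCGCNC on both strands.
Mt1, chr8:94178839-94179088, plus strand: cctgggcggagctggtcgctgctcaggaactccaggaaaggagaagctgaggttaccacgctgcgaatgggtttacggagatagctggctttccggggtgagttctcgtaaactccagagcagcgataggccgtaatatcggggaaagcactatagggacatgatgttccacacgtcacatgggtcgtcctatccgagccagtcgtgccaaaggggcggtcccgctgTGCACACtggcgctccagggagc
Mt1, chr8:94179089-94179118, plus strand: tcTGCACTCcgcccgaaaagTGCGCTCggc
Mt2, chr8:94172368-94172617, plus strand: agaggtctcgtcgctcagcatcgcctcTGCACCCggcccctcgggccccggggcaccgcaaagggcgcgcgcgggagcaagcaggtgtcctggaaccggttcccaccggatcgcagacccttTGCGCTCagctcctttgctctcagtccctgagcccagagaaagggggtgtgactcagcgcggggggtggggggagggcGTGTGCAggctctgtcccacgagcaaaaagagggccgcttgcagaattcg
Mt2, chr8:94172618-94172647, plus strand: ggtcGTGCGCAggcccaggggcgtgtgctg
In windows of 250 bases before to 50 bases after the start, Mt1 held 3 matches and Mt2 held 4, of which 2 were on the opposite strand. Of 32851 mouse promoter windows of this length, 25.7% held at least 1 match, 1.97% at least 3 and 0.517% at least 4. RefSeq promoter windows were matched for 8 of the 10 genes, all but Hmox1 and Slc40a1. Of the 2 Tfrc windows, 1 held 2 overlapping matches, and the windows of Blvrb, Fth1, Ftl1, Slc11a1 and Selenop held none. A match is a description of letters and not a bound site. The Mt1 and Mt2 windows are each placed on 1 RefSeq start. Elements near any other start of these genes lie outside the windows and are not in these counts.

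Of the 10 genes, 4 carried an iron responsive element, a hairpin bound by iron regulatory proteins when iron is low. In a 5′ UTR this binding blocks translation and leaves the RNA count as it is, and in the 3′ UTR of Tfrc it protects the RNA. The elements are shown because they set what an RNA count can read of each gene. They were searched in the UTRs of protein-coding transcripts (GENCODE M21, GRCm38) on the transcribed strand as a C, 5 stem bases of any kind and the loop CAGTGN, with the stem bases pairing with the 5 after the loop. Each is given 5′ to 3′ as 29 bases within an exon, with the 6 loop bases in capitals. The Slc40a1, Fth1 and Ftl1 elements lay in the 5′ UTR and the 4 Tfrc elements found lay in the 3′ UTR. A hairpin with an unpaired stem base or another loop is missed by this search, so these genes may carry more elements.
Slc40a1, chr1:45925465-45925493, minus strand: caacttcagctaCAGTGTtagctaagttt
Fth1, chr19:9982732-9982760, plus strand: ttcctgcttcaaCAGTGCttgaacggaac
Ftl1, chr7:45459779-45459807, minus strand: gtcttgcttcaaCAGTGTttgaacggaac
Tfrc, chr16:32631219-32631247, plus strand: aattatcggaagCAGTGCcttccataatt
Tfrc, chr16:32631598-32631626, plus strand: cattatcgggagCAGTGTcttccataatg
Tfrc, chr16:32631663-32631691, plus strand: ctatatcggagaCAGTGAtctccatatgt
Tfrc, chr16:32631710-32631738, plus strand: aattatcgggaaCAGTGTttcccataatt
A match stood in a 5′ UTR in 31 of 21877 coding genes (0.142%) and in a 3′ UTR in 129 (0.59%). The Fth1 and Ftl1 elements were read here only as sequence, since counts of RNA do not show translation.

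Cells were taken as barcodes with at least 1000 UMIs (counted RNA molecules) and at most 17% UMIs of mitochondrial genes. The WT library held 101808996 UMIs and 10107 such cells with a median of 7776 UMIs, and the CD169-DTR library held 84065489 UMIs and 7604 cells with a median of 8099.5. The libraries shared 21 of these barcodes. Clusters were made without the 10 genes and named from marker lists, which gave 9445 WT and 7066 CD169-DTR immune cells. Macrophages made up 2271 and 731 of them, microglia 4031 and 4631, DCs 1188 and 246, plasmacytoid DCs (pDCs) 102 and 11, granulocytes 169 and 194, T cells 503 and 227, NK cells 327 and 86, and B cells 75 and 124. A further 803 and 838 cells sat in clusters left without a name, mainly a C4b Cst7 cluster with 9 of 10 microglial markers. Siglec1, the targeted gene, checked the labels. In macrophages its level, as UMIs per 1000000 UMIs of the class (CPM), was 37.8 for WT and 11.9 for CD169-DTR mice. The log2 ratio of the WT to the CD169-DTR level, used throughout, was 1.66 (1.38 to 1.96). Microglia had 18.7 and 5.35 CPM, a log2 ratio of 1.81 (1.59 to 2.03). CD169-DTR mice keep 1 intact Siglec1 copy, so fewer Siglec1-expressing cells and less Siglec1 RNA per cell cannot be told apart. Every interval given here is at 95% and covers counting error only, and no test was made because each group is 1 library.

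Each gene had its own order of levels over the classes, given here as CPM with the WT value before the CD169-DTR value. Mt1 was highest in microglia, at 331 (325 to 337) and 472 (465 to 478). Macrophages followed in WT at 226 (219 to 233) and DCs at 194 (187 to 202), whereas in CD169-DTR mice DCs had 464 (443 to 486), which overlapped with microglia, and macrophages 414 (401 to 427). Lymphocytes and granulocytes lay lower, between 31.1 and 94.9 CPM in both libraries. Mt2 was scarce, with 14.4 (13.2 to 15.7) and 24.1 (22.7 to 25.6) CPM in microglia, 6.57 and 27.5 in DCs and 4.37 and 7.09 in macrophages. B cells held 0 Mt2 UMIs in both libraries, with upper bounds of 6.36 and 5.502 CPM. Mt1 and Mt2 are paralogs, and reads they share could not be assigned to either.

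Hmox1 (chromosome 8, 75093621 to 75100589, plus strand) was highest in macrophages as a class. Macrophages had 794 (781 to 807) and 887 (868 to 906) CPM. Granulocytes had 489 and 355 CPM, microglia 271 and 310, and DCs 111 and 231, and these neighbors in the order did not overlap in either library, apart from WT DCs and pDCs. T, NK and B cells stayed between 31.1 and 50.7 CPM. Blvrb (chromosome 7, 27447978 to 27466144, plus strand) was also highest in macrophages, at 166 (160 to 172) and 184 (175 to 193) CPM. B cells came next with 126 (98.7 to 158) and 137 (111 to 168), above microglia at 63.9 and 60.1. The B cell and pDC levels of Blvrb overlapped in both libraries.

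The ferritin chains Fth1 (chromosome 19, 9980598 to 9985098, plus strand) and Ftl1 (chromosome 7, 45457944 to 45459884, minus strand) were counted in nearly every myeloid cell. Fth1 was highest in granulocytes, at 34098 (33653 to 34546) and 24266 (23945 to 24590) CPM, and then in macrophages at 20620 and 19258. Microglia had 5453 and 4890, below DCs at 7481 and 9329. T cells, at 2644 and 1960 CPM, and NK cells, at 2711 and 1552, were the lowest classes. Ftl1 had 12937 (12885 to 12989) and 14059 (13984 to 14134) CPM in macrophages and 13799 and 9152 in granulocytes, so the order of these classes differed between the libraries. Microglia had 4464 and 4712. Near-identical copies such as Ftl1-ps1 share reads with the ferritin genes, which makes their counts uncertain by an unknown amount.

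The metal transporters each had another leading class. Slc40a1 (chromosome 1, 45908068 to 45926523, minus strand) had 172 (141 to 206) and 151 (127 to 179) CPM in granulocytes and 59.2 (56.7 to 61.8) and 64.4 (62.0 to 66.8) in microglia. Macrophages had only 7.56 (6.36 to 8.92) and 9.66 (7.81 to 11.8), although free RNA in barcodes of 10 to 100 UMIs held 24.5 and 46.7 CPM of it. Tfrc (chromosome 16, 32608920 to 32632794, plus strand) was highest in pDCs, at 65.8 (52.0 to 82.1) and 81.1 (40.5 to 145) CPM. Macrophages and DCs, between 5.14 and 6.57 CPM, had the lowest Tfrc levels and overlapped with each other in both libraries. Slc11a1 (chromosome 1, 74375195 to 74386062, plus strand), a phagosomal metal transporter, had 236 (231 to 241) and 214 (210 to 219) CPM in microglia, 159 and 182 in macrophages and 165 and 139 in granulocytes. In DCs it had 22.7 and 27.8.

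Selenop (chromosome 15, 3268547 to 3280508, plus strand), which encodes a secreted selenium carrier, was highest in microglia. Microglia had 869 (860 to 879) and 928 (919 to 937) CPM and held 72.7% and 77.2% of its immune UMIs. Macrophages followed with 229 (222 to 236) and 453 (439 to 466) CPM. In WT the macrophage level overlapped with that of B cells, at 224 (187 to 266), but in CD169-DTR mice it was separate from the next class, granulocytes at 202 (174 to 234). Of B cells, 37.3% in WT and 14.5% in CD169-DTR mice held more than 10 microglial and macrophage marker UMIs. Without these cells, B cells had 65.6 and 39.8 CPM of Selenop, on only 13 and 17 UMIs.

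**Figure D1:**
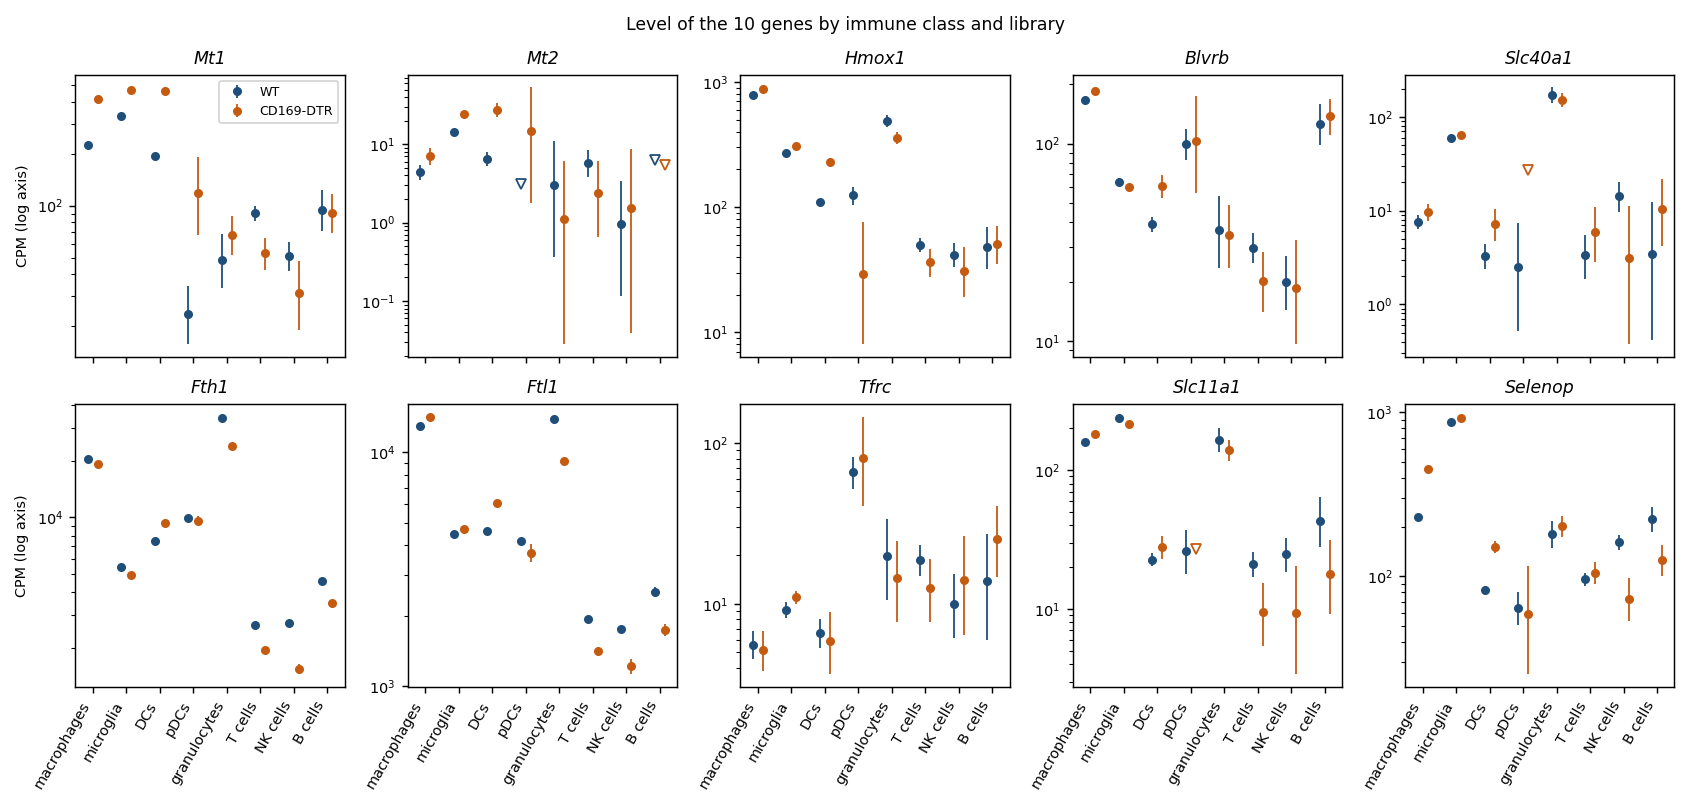
Level of each gene (CPM, log axis) in 8 immune classes, with WT in blue, CD169-DTR in orange, bars for 95% Poisson intervals and open triangles for the upper limit where a class held 0 UMIs. Hmox1, Blvrb, Fth1 and Ftl1 sit high in macrophages, while Slc40a1 and Selenop are at 59.2 and 869 CPM in WT microglia against 7.56 and 229 in WT macrophages.

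Within microglia, Mt1 and Hmox1 differed more between the 8 clusters, named after their leading genes, than between the libraries. The Il1a Nlrp3 cluster, led by inflammatory genes such as Il1a, Nlrp3 and Tnf (357 WT and 533 CD169-DTR cells) had the highest Mt1 level of the 21 immune clusters with at least 50 cells, at 1205 (1171 to 1239) and 1615 (1583 to 1648) CPM. The Slc2a5 P2ry12 cluster, led by genes of resting microglia, had 152 (143 to 161) and 187 (179 to 195). Mt2 had 62.0 and 101 CPM in the former and 1.62 and 4.43 in the latter. Hmox1 showed the same contrast, with 1379 (1342 to 1416) and 1471 (1440 to 1502) CPM in Il1a Nlrp3 microglia and 79.2 (72.9 to 85.9) and 109 (103 to 115) in Slc2a5 P2ry12 microglia. A list of 30 genes known to be induced by tissue handling moved with this: its summed level was 54702 and 62887 CPM in Il1a Nlrp3 microglia and 20675 and 25104 in Slc2a5 P2ry12 microglia, and its part in the result was not tested.

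Selenop and Slc40a1 were highest in Slc2a5 P2ry12 microglia among the 8 microglial clusters. These cells had 1623 (1594 to 1652) and 1613 (1590 to 1636) CPM of Selenop and 113 (106 to 121) and 112 (106 to 118) of Slc40a1. Il1a Nlrp3 microglia had 852 (823 to 881) and 727 (705 to 749) CPM of Selenop and 49.3 and 53.0 of Slc40a1. Igf1 Spp1 microglia had 445 and 515 CPM of Selenop and 43.6 and 30.4 of Slc40a1. Ferritin was high in Igf1 Spp1 microglia, with 10368 (10274 to 10464) and 8633 (8546 to 8721) CPM of Fth1 against 2288 and 2452 in Slc2a5 P2ry12 microglia.

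Macrophages fell into 3 clusters. Gpnmb Ms4a7 macrophages and F10 Clec4e macrophages had like levels of Fth1, at 22022 and 22039 CPM in WT and 21568 and 21318 in CD169-DTR mice, and Hp Ear2 macrophages had 5106 and 4552. Hmox1 was highest in F10 Clec4e macrophages, with 1015 (995 to 1036) and 1315 (1274 to 1357) CPM, and Blvrb in Gpnmb Ms4a7 macrophages, with 218 and 237. Among DCs, Ccr7 Cacnb3 cells had 7980 and 11357 CPM of Ftl1, against 4759 and 6437 in Cd209a Ifitm1 DCs and 2410 and 2560 in Snx22 Xcr1 DCs.

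**Figure D2:**
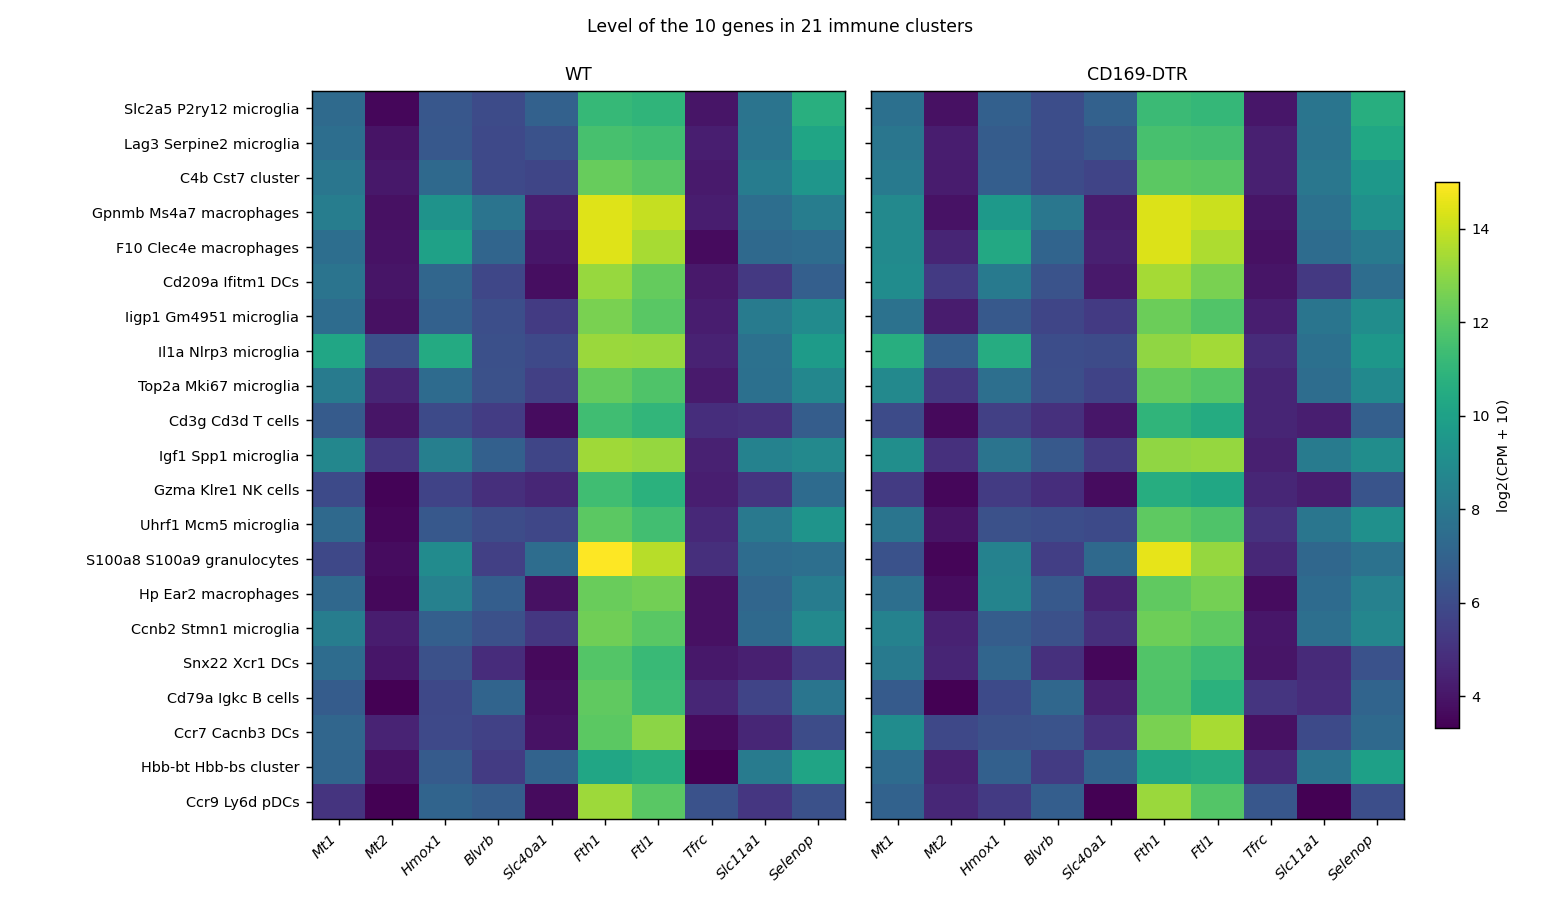
Level of the 10 genes as log2(CPM + 10) in the 21 immune clusters of at least 50 cells, WT on the left and CD169-DTR on the right, with lighter colors for higher levels. Il1a Nlrp3 microglia stand out for Mt1 and Hmox1, at 1205 and 1379 CPM in WT and 1615 and 1471 in CD169-DTR mice.

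The genes were also uneven between the cells of a cluster, which was described after every cell was thinned to 4500 UMIs and shallower cells were left out. In Il1a Nlrp3 microglia the median cell held 3 Mt1 UMIs in WT and 4.5 in CD169-DTR mice, the 90th percentile was 15 and 18, and the highest cell had 52 and 62. Of these cells, 77.1% (72.2 to 81.5) and 87.9% (84.7 to 90.6) held an Mt1 UMI, compared with 37.8% (34.7 to 40.9) and 46.7% (44.3 to 49.2) of Slc2a5 P2ry12 microglia. In macrophages, the 10% of cells with most Hmox1 carried 53.3% and 56.9% of its UMIs. Selenop was spread more evenly in microglia, where the corresponding shares were 28.5% and 27.2% and 88.0% and 90.7% of cells held a UMI.

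Shares of cells at this depth were set beside those of T cells, which are no clean baseline. More than 10 microglial and macrophage marker UMIs were held by 48.7% of WT and 37.9% of CD169-DTR T cells. Without these cells the T cell level of Hmox1 was 8.42 and 19.1 CPM, instead of 50.2 and 36.2. The shares below include all T cells that reached this depth. T cells held an Mt1 UMI in 13.8% and 7.7% of cells, an Hmox1 UMI in 7.8% and 9.3%, a Selenop UMI in 25.1% and 24.6% and a Slc40a1 UMI in 1.0% and 1.1%. In macrophages the shares were 36.9% (34.5 to 39.3) and 57.6% (53.8 to 61.5) for Mt1, 68.9% and 70.3% for Hmox1, 43.8% (41.3 to 46.2) and 62.1% (58.2 to 65.8) for Selenop, and 2.3% and 2.8% for Slc40a1. Thinning left out 656 WT and 77 CD169-DTR macrophages, and without it the Mt1 shares were 44.4% and 70.7% and the Selenop shares 48.9% and 73.7%. The Slc40a1 share of macrophages thus lay near that of T cells, whereas 22.5% (21.1 to 23.9) and 24.8% (23.5 to 26.2) of microglia held a Slc40a1 UMI.

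**Figure D3:**
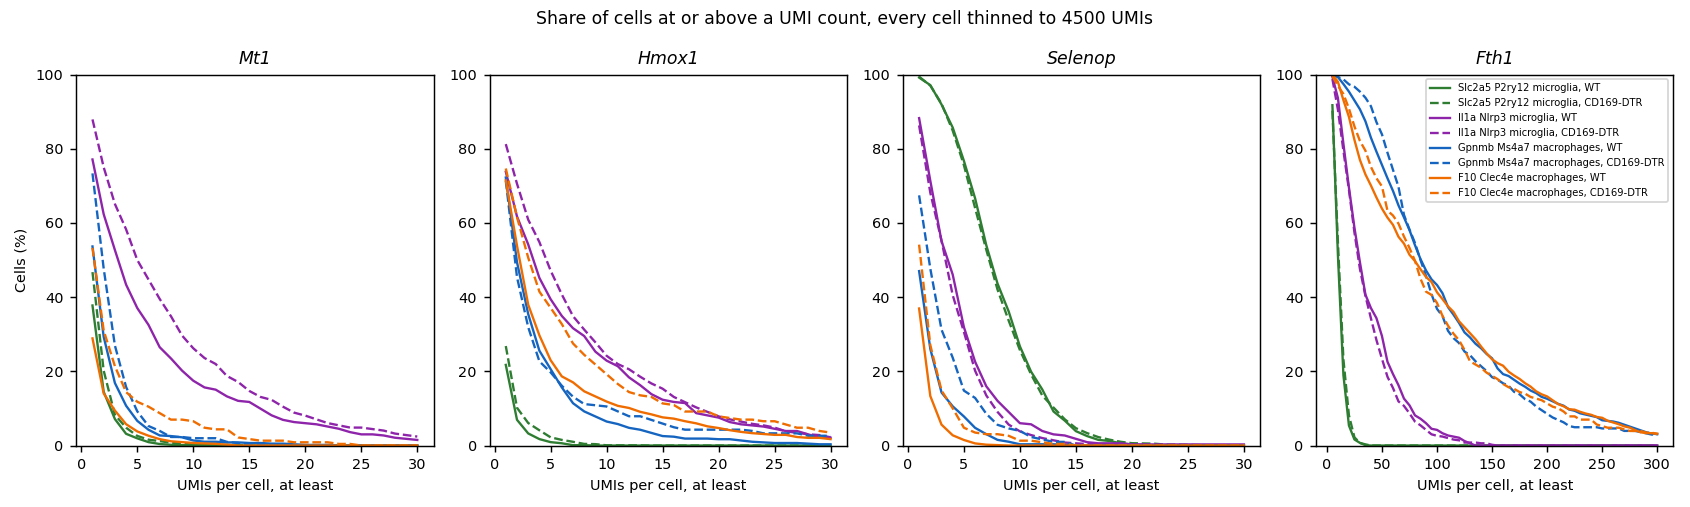
Share of cells (y axis, %) with at least a given number of UMIs (x axis) of Mt1, Hmox1, Selenop or Fth1 after thinning to 4500 UMIs, for 4 clusters, with WT as solid and CD169-DTR as dashed lines. For Mt1, Il1a Nlrp3 microglia start at 77.1% and 87.9% of cells and keep a long tail, and the dashed line of F10 Clec4e macrophages lies above the solid one.

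The levels of several of the genes went together over the 21 immune clusters, which share libraries and depth, so the Pearson correlations of log2(CPM + 10) are a description with no p. Fth1 and Ftl1 had a correlation of 0.88, Mt1 and Mt2 0.83, Hmox1 and Ftl1 0.80, Hmox1 and Fth1 0.73, Slc11a1 and Selenop 0.88, and Slc40a1 and Selenop 0.78. Among 9117 genes with at least 1000 UMIs in immune cells, the pattern most like that of Mt1 was that of Mt2 (0.83), followed by Clta (0.82) and Eif4a1 (0.78). For Mt2 these were Mt1 (0.83), Dusp8 (0.83) and Dot1l (0.80). For Hmox1 they were Atp6v1e1 (0.90), Atp6v1a (0.90) and Itga5 (0.89), and for Blvrb Myo5a (0.85), Spsb2 (0.77) and Apobec1 (0.75). Fth1 was most like Cstb (0.93), Cd300lf (0.92) and Ftl1-ps1 (0.91), and Ftl1 most like Ftl1-ps1 (0.98), Cstb (0.93) and Bri3 (0.93). Slc40a1 was most like C5ar2 (0.98), Arap3 (0.96) and Arsg (0.96), Tfrc most like Rpgrip1 (0.84), Pacsin1 (0.83) and Jade1 (0.79), Slc11a1 most like Sec14l1 (0.96), Fcgr3 (0.96) and Lrp1 (0.95), and Selenop most like Csf1r (0.96), Rnase4 (0.96) and Trf (0.96).

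The question put by the design is how immune cells differ once cells that express CD169 have been depleted. In macrophages, Mt1, Mt2 and Selenop were lower in WT than in CD169-DTR mice, and the other 7 genes differed by less than 0.5 on the log2 scale, the size used here to mark a difference. Thus 3 of 10 genes were past this fold, 0 higher and 3 lower in WT, where 14.4% of 9336 genes counted in macrophages (at least 100 UMIs over both libraries) were past it, 7.52% higher and 6.93% lower. Mt1 had 4181 WT and 4026 CD169-DTR UMIs, which came to 226 and 414 CPM and a log2 ratio of −0.87 (−0.94 to −0.81). Selenop had 229 and 453 CPM, a log2 ratio of −0.98 (−1.04 to −0.92). Mt2 rested on 81 and 69 UMIs and had a log2 ratio of −0.70 (−1.18 to −0.21). Mt1 and Selenop are among 6 genes that the study picked from these same libraries, so their direction here is not independent evidence.

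The heme and iron genes of macrophages lay close between the groups. Log2 ratios were −0.16 (−0.20 to −0.12) for Hmox1, −0.15 (−0.24 to −0.07) for Blvrb, −0.19 (−0.28 to −0.11) for Slc11a1, 0.10 (0.09 to 0.11) for Fth1 and −0.12 (−0.13 to −0.11) for Ftl1. Slc40a1, at −0.35 (−0.74 to 0.04), and Tfrc, at 0.11 (−0.39 to 0.63), had intervals that held 0 and reached past the fold. The median of the 10 ratios was −0.18, beside −0.05 over all genes counted.

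The difference in Mt1 was present in each macrophage cluster but uneven. In F10 Clec4e macrophages the levels were 175 (167 to 184) and 465 (441 to 491) CPM, a log2 ratio of −1.41 (−1.52 to −1.31). It was −0.54 (−0.63 to −0.46) in Gpnmb Ms4a7 macrophages, with 302 and 440 CPM, and −0.35 (−0.62 to −0.08) in Hp Ear2 macrophages, with 144 and 183. Selenop was also lower in WT in 3 of 3 clusters, with log2 ratios of −0.96 (−1.04 to −0.89) in Gpnmb Ms4a7, −0.73 (−0.86 to −0.61) in F10 Clec4e and −0.22 (−0.42 to −0.03) in Hp Ear2 macrophages. The median macrophage held 11822 UMIs in the CD169-DTR library and 7250 in the WT library. Among cells of 5000 to 10000 UMIs the log2 ratio was −0.95 for Mt1 and −0.58 for Selenop. Microglial markers summed to 1988 CPM in WT and 2431 in CD169-DTR macrophages, with 5 of 10 higher in each group and none at 0. By cluster, the sum was lower in WT in F10 Clec4e (1262 and 1739 CPM) and Hp Ear2 macrophages (855 and 2024). In Gpnmb Ms4a7 macrophages it was higher in WT, at 3068 and 2895 CPM. The part of these markers in the ratios was not tested. Erythroid markers summed to 358 CPM in WT and 0.925 in CD169-DTR macrophages, with 6 of 8 higher in WT and 5 at 0 in the CD169-DTR library, but 99.6% of the 6625 WT UMIs were in 2 cells. Without cells with more than 10 erythroid UMIs, a setting added after seeing the data, the level was 1.57 and 0.925 CPM, and the ratios of Mt1 and Selenop were again −0.87 and −0.98. Without the cells that held a P2ry12 or Cd3e UMI, the log2 ratio was −0.88 for Mt1 and −0.75 for Selenop. Free RNA held 352 and 695 CPM of Mt1 and 440 and 675 of Selenop, and subtracting it gave −0.88 and −1.01.

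**Figure D4:**
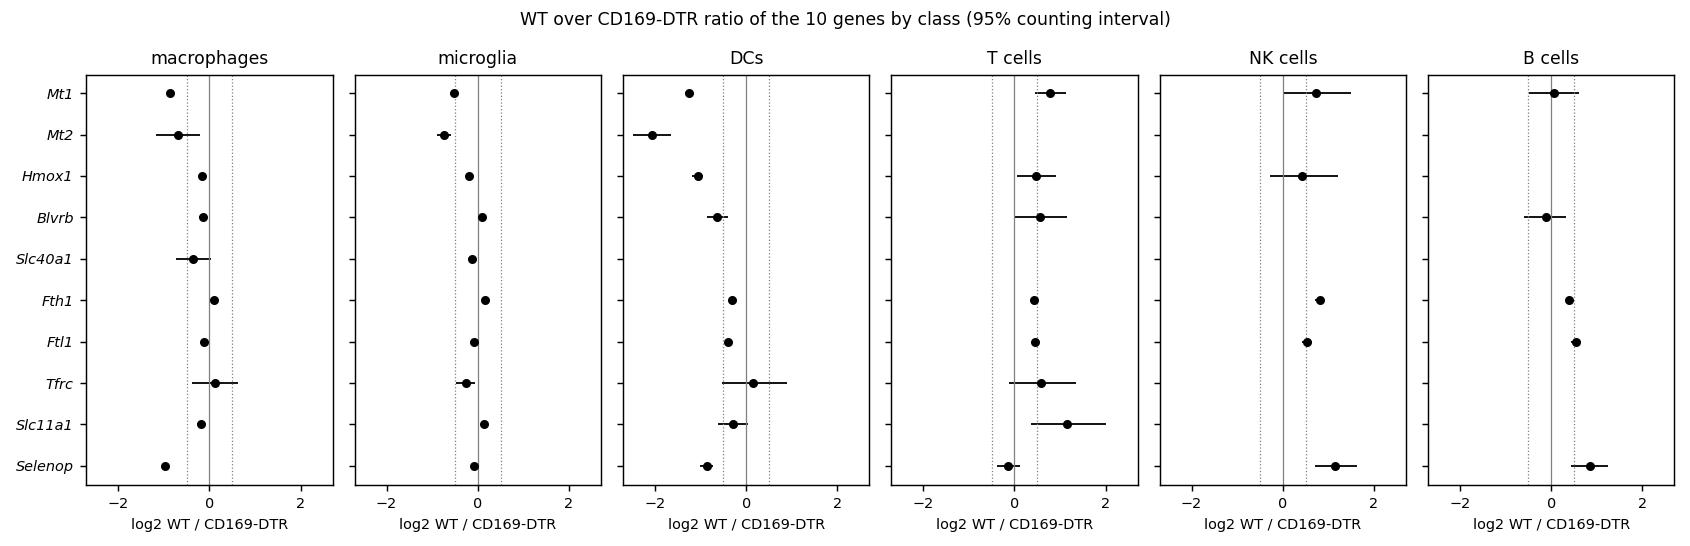
Log2 ratio of WT over CD169-DTR for each gene with at least 100 UMIs in 6 classes, with 95% counting intervals and dotted lines at −0.5 and 0.5. Mt1 lies at −0.87, −0.51 and −1.26 in macrophages, microglia and DCs and at 0.77 and 0.72 in T and NK cells.

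In microglia both metallothioneins were lower in WT, while the heme, iron and selenium genes were within the fold. The count past the fold was 2 of 10, 0 higher and 2 lower in WT, beside 4.18% of 11428 genes (2.21% higher and 1.98% lower). Mt1 had 331 and 472 CPM, a log2 ratio of −0.51 (−0.54 to −0.48), and Mt2 had 14.4 and 24.1, a log2 ratio of −0.74 (−0.90 to −0.59). Mt1 thus stood barely past the fold, and it was at −0.48 once the unnamed C4b Cst7 and Hbb-bt Hbb-bs clusters were counted as microglia, which was tried only after seeing the data, and at −0.34 in cells of 5000 to 10000 UMIs. The interval of Mt1 lay below 0 in 8 of 8 microglial clusters, with ratios from −0.62 in Top2a Mki67 to −0.23 in Ccnb2 Stmn1 microglia. Selenop had a log2 ratio of −0.09 (−0.12 to −0.07), and 4 of 8 clusters were higher in WT and 4 lower. In the C4b Cst7 cluster 1 of 10 genes was past the fold, beside 3.9% of 8647 genes (1.86% higher and 2.04% lower). This was Hmox1, higher in WT with 150 and 104 CPM and a log2 ratio of 0.53 (0.41 to 0.66), and Mt1 was at −0.24 there.

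The remaining microglial ratios were −0.19 for Hmox1, 0.09 for Blvrb, −0.12 for Slc40a1, 0.16 for Fth1, −0.08 for Ftl1, −0.26 for Tfrc and 0.14 for Slc11a1. Hmox1 was not uniform, since it was higher in WT in Igf1 Spp1 microglia, with 314 and 217 CPM and a log2 ratio of 0.53 (0.41 to 0.65), where 1 WT cell held 16.4% of the UMIs, and lower in Slc2a5 P2ry12 microglia, at −0.46 (−0.60 to −0.32). The handling-induced list moved with the metallothioneins in microglia. Its summed level was 20135 CPM in WT and 25015 in CD169-DTR microglia, 28 of its 30 genes were lower in WT, and its median log2 ratio was −0.38. Of 14 counted glucocorticoid-responsive genes, 0 were past the fold and higher in WT and 5 lower, with a median of −0.40. Among the 5 was Lcn2, with 94.0% of its CD169-DTR UMIs in 1 cell. Over all 11428 genes counted in microglia 2.21% were higher and 1.98% lower, with a median of −0.04. In macrophages, where Mt1 was also lower in WT, the handling-induced list was higher in WT, with 30686 and 26672 CPM and a median of 0.19. Of 12 glucocorticoid-responsive genes counted in macrophages, 0 were past the fold and higher in WT and 1 lower, with a median of −0.13. Over all genes counted in macrophages, 7.52% were higher and 6.93% lower. The part of these lists in the metallothionein levels was not tested. Erythroid markers summed to 114 CPM in WT and 1.45 in CD169-DTR microglia, and 98.9% of the WT UMIs were in 1 cell, without which Mt1 was again at −0.51.

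In DCs both metallothioneins, Hmox1, Blvrb and Selenop were lower in WT. Of 9 counted genes, 5 were past the fold, 0 higher and 5 lower in WT, beside 15.8% of 8410 genes (8.1% higher and 7.66% lower). Mt1 had 194 and 464 CPM, a log2 ratio of −1.26 (−1.34 to −1.17), and Mt2 had 6.57 and 27.5, a log2 ratio of −2.07 (−2.49 to −1.65). Hmox1 had 111 and 231 CPM (−1.06, −1.18 to −0.94), Blvrb 39.0 and 60.7 (−0.64, −0.86 to −0.41) and Selenop 82.6 and 151 (−0.87, −1.01 to −0.72). Ferritin was within the fold, at −0.32 for Fth1 and −0.40 for Ftl1, as were Slc11a1 at −0.29 and Tfrc at 0.16. Slc40a1, with 46 and 27 UMIs, was not counted. Among DCs of 5000 to 10000 UMIs, Selenop was at −2.41 and Hmox1 at −0.58, while Mt1 was at −1.16 and Blvrb at −0.72. The Mt1 ratio was −1.25 (−1.35 to −1.15) in Cd209a Ifitm1 DCs, −0.66 (−0.91 to −0.41) in Snx22 Xcr1 DCs and −1.92 (−2.25 to −1.58) in Ccr7 Cacnb3 DCs, of which CD169-DTR mice had only 14 cells. Microglial markers moved with these genes, since their sum was 1365 CPM in WT and 1996 in CD169-DTR DCs with 10 of 10 lower in WT, and their part in the result was not tested. The handling-induced list had a median log2 ratio of 0.05 in DCs. Of 13 counted glucocorticoid-responsive genes, 0 were past the fold and higher in WT and 5 lower, with a median of −0.12. The part of these 2 lists in DCs was not tested either.

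Granulocytes had 1 of 6 counted genes past the fold, 1 higher and 0 lower in WT, beside 29.4% of 2016 genes (14.7% in each direction). Ftl1 had 13799 and 9152 CPM, a log2 ratio of 0.59 (0.55 to 0.64), and Fth1, at 0.49 (0.46 to 0.52), and Hmox1, at 0.46 (0.23 to 0.69), lay just inside the fold. Slc40a1 was at 0.18 (−0.19 to 0.55). In pDCs, of which CD169-DTR mice had 11, 1 of 4 counted genes was past the fold and higher in WT, beside 27.5% of 1986 genes (20.2% higher and 7.3% lower). This was Hmox1, with 147 and 4 UMIs and a log2 ratio of 2.07 (0.68 to 3.97).

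In lymphocytes the counted genes past the fold were all higher in WT, and WT lymphocytes also held more macrophage marker RNA. T cells had 4 of 8 counted genes past the fold and higher in WT (Mt1, Blvrb, Tfrc and Slc11a1), beside 19.3% of 6251 genes (14.8% higher and 4.51% lower). NK cells had 4 of 5 (Mt1, Fth1, Ftl1 and Selenop) beside 14.7% of 3718 (9.49% higher and 5.24% lower), and B cells 2 of 5 (Ftl1 and Selenop) beside 23% of 1647 (12.9% higher and 10.1% lower). None of the counted genes was past the fold and lower in WT in these classes. Mt1 in T cells had 90.3 and 52.8 CPM, a log2 ratio of 0.77 (0.44 to 1.12), while the interval of Tfrc, at 0.59 (−0.12 to 1.35), held 0. Selenop in NK cells had 161 and 73.0, a log2 ratio of 1.14 (0.70 to 1.62). Macrophage markers summed to 2000 and 1276 CPM in T cells, 1536 and 787 in NK cells and 3573 and 949 in B cells, and 12, 12 and 11 of 12 were higher in WT. Basophil or mast cell markers summed to 1379 and 726 CPM in T cells, with 7 of 8 higher in WT. Their sums were 6.64 and 4.66 CPM in NK cells and 317 and 1.49 in B cells. Without integration of the libraries, 26 WT and 9 CD169-DTR cells formed a basophil or mast cell cluster. More than 10 microglial and macrophage marker UMIs were held by 48.7% of WT and 37.9% of CD169-DTR T cells, 34.3% and 32.6% of NK cells and 37.3% and 14.5% of B cells. Without those cells, a setting added after seeing the data, only 3, 2 and 2 genes in T, NK and B cells kept 100 UMIs and 0 of them were past the fold, so most of the named genes fell under the count limit. On the UMIs that were left, Mt1 in T cells had 56 and 12 UMIs and a log2 ratio of 1.34 (0.43 to 2.38), and Blvrb was at −0.23 (−1.26 to 0.85). Selenop was at 0.09 (−0.74 to 1.00) in NK cells and at 0.72 (−0.44 to 1.85) in B cells. Without the 8% highest Scrublet (doublet) scores, Mt1 and Blvrb in T cells were at 1.66 and 1.71. With equal weight per cell they were at 0.49 and 0.08. Beyond these values, the part of myeloid RNA and of basophils or mast cells in these ratios was not tested.

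Macrophages were also divided within a library by whether they held a Siglec1 UMI, since the study separates CD169+ from CD169- macrophages. Siglec1 was read before thinning, so deeper cells were more likely to count as having a UMI. At 37.8 CPM of Siglec1 and a median of 7250 UMIs in WT macrophages, many cells without a Siglec1 UMI may express it. The split is thus no clean division of CD169+ and CD169- cells, and it can make differences look smaller. After thinning to 4500 UMIs, 389 WT macrophages with a Siglec1 UMI were set beside 1226 without. Of 7 counted genes, 0 were past the fold, beside 9.96% of 6092 genes (4.45% higher and 5.52% lower with a Siglec1 UMI). Mt1 had 209 (188 to 231) CPM with and 208 (196 to 220) without, a log2 ratio of 0.00 (−0.17 to 0.17), and Selenop had 211 and 191, a log2 ratio of 0.14 (−0.03 to 0.32). Hmox1 was lower in cells with a Siglec1 UMI, with 682 (644 to 722) and 804 (780 to 828) CPM, a log2 ratio of −0.24 (−0.33 to −0.14). Fth1 and Ftl1 were at 0.12 and 0.18, Blvrb at 0.20 and Slc11a1 at −0.02. In the CD169-DTR library, with 88 and 566 cells, Hmox1 was at −0.30 (−0.47 to −0.13), Mt1 at −0.10 (−0.36 to 0.16) and Selenop at 0.10 (−0.15 to 0.34), beside 20.1% of 3727 genes past the fold (6.09% higher and 14% lower with a Siglec1 UMI). In the WT library the Mt1 ratio ranged from −0.06 to 0.00 under the alternatives run, and the Selenop ratio from −0.27 without cells that held a Cd3e or P2ry12 UMI to 0.29 after thinning to 2000 UMIs.

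Other genes of the same pathways were taken from a list of 84 (metallothionein and zinc, heme uptake and breakdown, heme synthesis, iron uptake and storage, NRF2 targets, selenoproteins). In macrophages 65 were counted, of which 2 were past the fold and higher in WT and 7 lower, with a median of −0.11. Over all 9336 genes counted 14.4% were past the fold, 7.52% higher and 6.93% lower. The 9 of 65 past the fold in either direction were near that background, and most of them were lower in WT. The lowest was Gpx3, a secreted selenium-dependent glutathione peroxidase, with 5.94 and 27.9 CPM, a log2 ratio of −2.23 (−2.56 to −1.90). It was held by 3.61% of WT and 17.1% of CD169-DTR macrophages, and 88.9% of its CD169-DTR UMIs were in Gpnmb Ms4a7 macrophages. Trf, the gene of transferrin, had 135 and 237 CPM, a log2 ratio of −0.81 (−0.89 to −0.73), and Slc39a14, a zinc and iron importer, was at −0.76 (−1.11 to −0.40). The highest were Slc30a1, the zinc exporter of the plasma membrane, with 64.2 and 31.9 CPM and a log2 ratio of 1.01 (0.83 to 1.20), and Slc25a37, the mitochondrial iron importer, at 0.54 (0.32 to 0.77). Alas1, the first enzyme of heme synthesis, followed at 0.47 (0.34 to 0.60). Slc30a1 is like Mt1 a known target of the metal-responsive factor MTF1. The ratios of these genes had opposite signs, and the part of MTF1 in either was not tested.

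By group in macrophages, each beside 7.52% higher and 6.93% lower over all genes counted, iron uptake and storage had 1 of 15 counted genes higher and 4 lower, metallothionein and zinc 1 of 6 higher and 1 lower, heme uptake and breakdown 0 of 10 higher and 1 lower, and selenoproteins 0 of 13 higher and 1 lower. Heme synthesis (8 counted) and NRF2 targets (13 counted), the group of stress-inducible genes to which Hmox1 is often assigned, had 0 past the fold in either direction.

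In microglia 69 of the 84 were counted, 2 were past the fold and higher in WT and 3 lower, with a median of −0.04, beside 2.21% higher and 1.98% lower over all 11428 genes counted. Cp, the ferroxidase ceruloplasmin, had 6.32 and 3.67 CPM, a log2 ratio of 0.78 (0.49 to 1.09), and Selenow, a small selenoprotein, had 234 and 149, a log2 ratio of 0.66 (0.61 to 0.70). Msrb1, another selenoprotein, was within the fold at 0.37. Slc30a4, a zinc transporter, was at −0.61 (−0.88 to −0.35). The lowest values rested on few cells. Lcn2, which binds iron-loaded siderophores, had a log2 ratio of −5.56, but 94.0% of its 516 CD169-DTR UMIs were in 1 cell. Hp, the gene of haptoglobin, had a log2 ratio of −2.31, and 42.5% of its 200 CD169-DTR UMIs were in 1 cell.

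**Figure D5:**
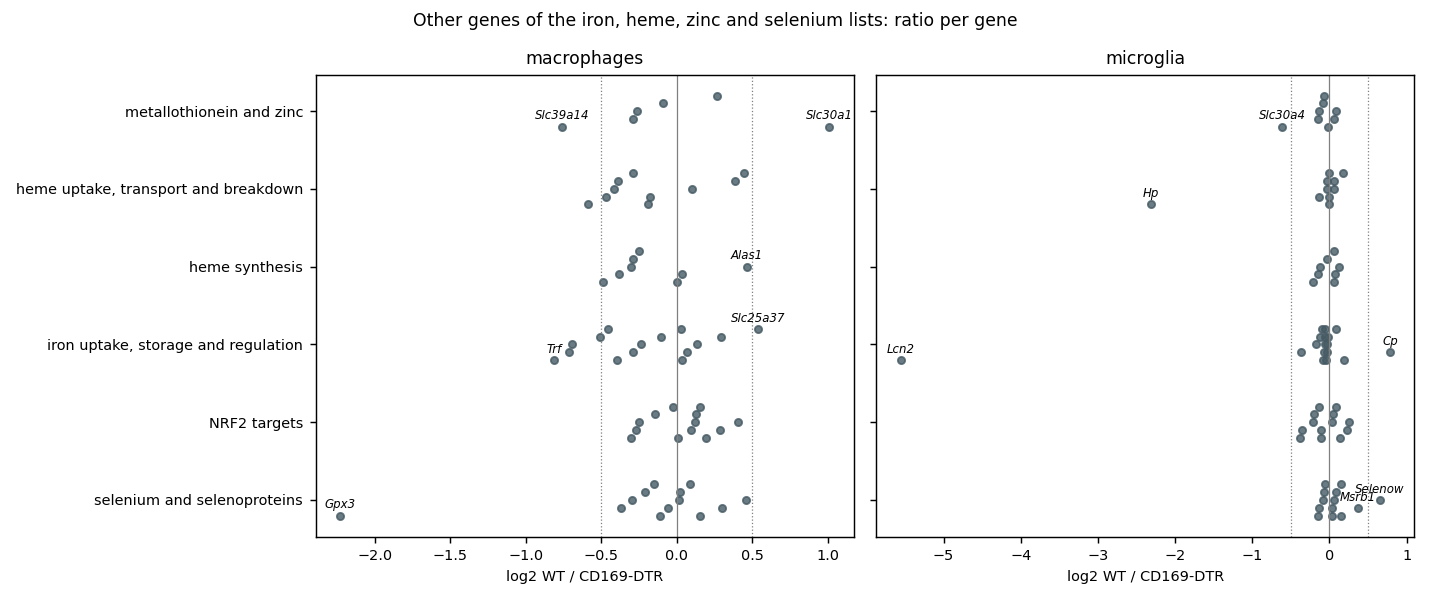
Log2 ratio of WT over CD169-DTR for each other pathway gene with at least 100 UMIs, by group, in macrophages (left) and microglia (right), with dotted lines at −0.5 and 0.5 and x axes that differ between the panels. In macrophages Gpx3 lies at −2.23 and Slc30a1 at 1.01, while in microglia Lcn2 at −5.56 and Hp at −2.31 stand apart.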

How the data were processed

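CD45.2+ cells of GL261 gliomas were measured in 1 WT and 1 CD169-DTR library. The authors deposited raw UMI counts of each gene for all barcodes, without normalization. Cell Ranger 3.1.0 is named in the file headers and mm10 in the submitters' processing notes. Barcodes under 1000 UMIs or over 17% mitochondrial UMIs were dropped, and doublets were not removed. Seurat 5.3.0 (R 4.3.3) integrated the libraries on 50 dimensions and 2000 variable features without the 10 genes, and clustered on 30 dimensions at resolution 1. Clusters were named from marker lists with at least 3 detected markers. A cluster whose leading genes held more markers of another class stayed unnamed. UMIs were summed per class and library with python 3.11.15, scipy 1.17.1 and scanpy 1.11.5, and scaled to CPM. A ratio was counted with at least 100 UMIs in the class and 1 in each library. Intervals were exact Poisson (CPM), exact conditional (ratios) and exact Clopper-Pearson (shares), at 95%. UMIs exclude PCR copies, and these intervals and limits cover counting error only.

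Free RNA was profiled in barcodes of 10 to 100 UMIs. From the median of 2 microglial marker UMIs per lymphocyte in each library, it amounted to 205 UMIs per WT and 133 per CD169-DTR cell, or 2.67% and 1.67% of the median immune cell. The genes named are the 10 genes, the 3 highest and 3 lowest pathway genes in macrophages and microglia, and the 3 genes most like each of the 10. The Igf1 Spp1 and Slc2a5 P2ry12 values of Hmox1 were chosen after they were seen. The genes, lists and marker sets were chosen with earlier results of these data known. The steps were tested on simulated data. Alternatives concerned integration, resolution, cell filters, doublet scores (Scrublet), depth, free RNA, scaling, cell and cluster weights, thinning and marker-positive cells. The sources used here give no other detail of the counting.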

Additional observations from a re-analysis of the deposited data

Results flagged for a closer look

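Several genes were past the fold in opposite directions in different immune classes. For Mt1 the log2 ratio (WT to CD169-DTR level) was −0.87 in macrophages, −0.51 in microglia and −1.26 in DCs, but 0.77 in T cells and 0.72 in NK cells. That of Blvrb was −0.64 in DCs and 0.55 in T cells. That of Selenop was −0.98 in macrophages and −0.87 in DCs, but 1.14 in NK cells and 0.84 in B cells. The difference between classes was not tested, since each value compares 1 library with 1 library. The positive values of T, NK and B cells were in classes whose WT cells also held more macrophage marker RNA. WT T and B cells also held more basophil or mast cell marker RNA. Leaving out lymphocytes with more than 10 myeloid marker UMIs left only 3, 2 and 2 genes with 100 UMIs, 0 of them past the fold, and the T cell ratio of Mt1 was then 1.34 (0.43 to 2.38) on 56 and 12 UMIs. Without the 8% highest Scrublet scores it was 1.66, and with equal weight per cell 0.49. Blvrb in T cells was at 1.71 without those scores, 0.08 with equal weight per cell and −0.23 (−1.26 to 0.85) without the marker-carrying cells.

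Signal also stood in cells outside the immune classes that the sort still held. Endothelial cells (403 in WT and 278 in CD169-DTR) had 215 CPM (202 to 229) of Slc40a1 in WT and 179 (165 to 195) in CD169-DTR mice. Tfrc in these cells was at 135 CPM (124 to 146) and 127 (115 to 140), compared with 65.8 (52.0 to 82.1) and 81.1 (40.5 to 145) in pDCs, the immune class with the highest level.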

How the results depend on the processing

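The count of genes past the fold stayed within 1.5 times its value in macrophages (2 to 4), in DCs (4 to 6) and for pathway genes in microglia (4 to 6) under the alternatives run. In microglia it was 1 instead of 2 in cells of 5000 to 10000 UMIs, under median-ratio scaling, with equal weight per cell or per cluster, and with the unnamed clusters counted as microglia. In granulocytes it was 2 (at least 2000 UMIs, free RNA subtracted, equal weight per cell) or 3 (Scrublet scores, median-ratio scaling) instead of 1. In T cells it was 0 in the depth window, 2 under median-ratio scaling, 1 with equal weight per cell and 0 without cells carrying myeloid markers. In NK cells it was 0 without the 8% highest Scrublet scores, in the depth window and without those cells. In B cells it was 1 (no integration, Scrublet scores, equal weight per cell) or 0 (depth window, those cells left out), and Ftl1 turned to −0.16 and −0.14 in the last 2. Pathway genes past the fold in macrophages numbered 14 without the 1% of cells with the highest CPM, and the Siglec1 split gave 1 gene without thinning. The cause was not tested. The log2 ratio of Mt1 ranged from −0.95 to −0.81 in macrophages, −0.57 to −0.34 in microglia and −1.41 to −1.13 in DCs, and that of Selenop in macrophages from −1.27 to −0.58. Of 622 alternative runs of the single ratios, 144 moved beyond the counting interval. The sign changed in 23 runs, which fell on 15 ratios. In 2 of these runs the main ratio had been past the fold, and the others were at most 0.28 in size after the change. No cluster could be named border-associated-like, so leaving it out gave no value. The class with the highest share of cells was the same for 7 of 10 genes at the other thinning settings. No paired analysis was possible because each group has 1 library. With 1 pool of 3 mice per group, variation between mice is unknown, and Mt2, Tfrc and Slc40a1 rest on few UMIs outside their main classes.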

Other observations

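Non-immune cells carried through the CD45.2 sort showed their own pattern of these genes. Endothelial cells of the glioma had 1221 (1190 to 1253) CPM of Selenop in the WT library and 1481 (1439 to 1523) in the CD169-DTR library, both above the microglial level of the same library. Mt2, at most 27.5 CPM in an immune class but 62.0 and 101 in Il1a Nlrp3 microglia, was at 104 (94.5 to 113) and 73.9 (64.8 to 83.9) CPM in endothelial cells, and Mt1 at 344 and 334. Hmox1 was low there, at 58.3 and 47.6 CPM. A Col11a1 Gjc3 cluster of only 10 and 13 cells, named as oligodendrocytes in 1 of 3 clusterings and unnamed in the others, had 787 (715 to 866) and 708 (654 to 766) CPM of Mt1 and 283 (240 to 332) and 250 (218 to 285) of Mt2, and their Slc40a1 level was at 5.52 and 1.14.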
